A study of Drosophila melanogaster with 2 samples.

Results

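The odorant, gustatory and ionotropic receptor genes of Drosophila melanogaster were examined for sites bound by fd3F in embryos. The members were the protein-coding genes whose symbol is Or, Gr or Ir followed by digits and a letter, plus Orco. There were 180 of them among 13945 protein-coding genes on the 6 chromosome arms that carry peaks, with 60 odorant receptor genes (Or, Orco included), 60 gustatory receptor genes (Gr) and 60 ionotropic receptor genes (Ir). The RefSeq annotation described all 180 as members of these families, and 7 pseudogenes with such symbols were left out. Arm 2R held 46 members, 3R held 43, 3L held 35, 2L held 31 and X held 25.

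The chromatin came from whole embryos of 1 transgenic line, aged 8 to 18 h by the source name (a separate age field of the labels holds a number that does not match it), in which fd3F carries GFP at its C-terminal end. It was sheared by sonication to fragments of 200 to 800 bp and precipitated with an antibody to GFP, so the antibody saw the tagged protein and not the endogenous one. The series has 1 group of 2 biological replicates, numbered 1 and 3, and no untagged or untreated group. A control experiment is named in the labels and was not used here. In whole embryos, the number of cells with fd3F at a site and the occupancy per cell cannot be told apart.

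Insects detect smells and tastes with ion channels made from these 3 gene families. Odorant receptors work as a channel of 1 tuning receptor with the co-receptor Orco, ionotropic receptors are relatives of glutamate receptors that join co-receptors such as Ir8a, Ir25a and Ir76b, and gustatory receptors respond to sugars, bitter compounds and carbon dioxide. Each is typically made in a small set of sensory neurons of the larva and adult, in the ciliated tip of their dendrites. The forkhead protein fd3F is known for its role in another sense organ type, the chordotonal neurons of hearing and body position, where it activates genes for the specialised, motile zone of the cilium.

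The authors deposited 4 peak lists: 1 for each replicate, 1 from the pooled reads of both, each with 30000 peaks, and a list of 3917 reproducible peaks. The reproducible list equalled the 3917 pooled peaks of highest signal. Whether each of its peaks was also called in each replicate was not tested. The signal value of a peak is the authors' score against the control on the scale of its own list, and a rank of 1 is the highest signal in a list. At a q-value of at most 0.05, 10181 pooled, 11489 replicate 1 and 8373 replicate 3 peaks remained, so most of each long list is weak. A gene was counted when the summit of a peak, its highest point, lay within 1000 bp of any annotated start site. Where several summits did, the one of highest signal is given. The read depth behind the lists is unknown here, and the intervals below are exact Clopper-Pearson 95% intervals that cover counting error only.

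In the reproducible list 5 summits lay within 1000 bp of a receptor start site, and the DNA around 4 of them is shown because the 5 are the strongest peaks near any member. Each sequence runs 50 bases to either side of the summit, on the plus strand of Release 6 (dm6), as read from the RefSeq genome sequence. The 5 short words described further below would be in capitals, and none of the 4 windows held one. The fifth summit, near Gr64a, lay in an untranslated region of CG11594 and is not printed.
Or88a (chr3R:14108749-14108849): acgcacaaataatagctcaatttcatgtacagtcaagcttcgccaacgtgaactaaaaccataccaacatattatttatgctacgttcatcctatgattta
Gr32a (chr2L:11113169-11113269): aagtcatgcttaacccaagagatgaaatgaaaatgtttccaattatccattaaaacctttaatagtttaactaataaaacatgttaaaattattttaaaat
Or9a (chrX:10460600-10460700): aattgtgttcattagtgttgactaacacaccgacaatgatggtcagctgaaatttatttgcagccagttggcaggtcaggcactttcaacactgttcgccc
Orco (chr3R:5413094-5413194): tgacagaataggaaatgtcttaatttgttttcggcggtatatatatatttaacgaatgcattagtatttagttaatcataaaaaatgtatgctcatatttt
All 4 windows were intergenic. Their G and C content was 34.7% at Or88a, 21.8% at Gr32a, 44.6% at Or9a and 24.8% at Orco. Within 100 bp of the summit it was 34.8%, 32.3%, 38.8% and 23.4% in that order. The median over all 3917 reproducible summits by that measure was 33.3%.

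Few receptor genes had a peak near their start site. In the reproducible list 5 of 180 did (2.78%, interval 0.908 to 6.36%), where 20.8% of all protein-coding genes did. In the pooled list 24 of 180 did (13.3%, interval 8.73 to 19.2%) against 58.4% of all genes, and 2 of these, Or10a and Gr10a, share 1 start site and 1 summit. Replicate 1 gave 27 receptor genes (15.0%, interval 10.1 to 21.1%) against 60.1% of all genes, and replicate 3 gave 40 (22.2%, interval 16.4 to 29.0%) against 56.2%. In every list the interval of the receptor genes lay below the share over all genes.

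The same held at stricter cuts. Among the 3917 best peaks of each replicate, replicate 1 gave 5 receptor genes where 20.1% of all genes had a summit, and replicate 3 gave 4 where 21.3% did. At q of at most 0.05 the pooled list gave 12 receptor genes (6.67%) beside 37.3% of all genes, replicate 1 gave 13 (7.22%) beside 39.7%, and replicate 3 gave 7 (3.89%) beside 32.9%. No test was made, since the study has 1 group and the members were chosen with earlier results known.

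The 3 families had similar shares. In the pooled list 8 of 60 Or genes had a start-site summit (13.3%, interval 5.94 to 24.6%), 10 of 60 Gr genes (16.7%, interval 8.29 to 28.5%) and 6 of 60 Ir genes (10%, interval 3.76 to 20.5%), and the 3 intervals overlap widely. The reproducible list gave 3 Or genes, 2 Gr genes and no Ir gene. A count of 0 of 60 has an upper limit of 5.96%, which lies above the Or share of 5% and the Gr share of 3.33%. In replicate 1 the counts were 8 Or, 12 Gr and 7 Ir genes, and in replicate 3 they were 13, 19 and 8. Gr genes had the highest count in the pooled list and in both replicates, by margins that lie within the counting intervals. That order depended in part on head-to-head pairs, described below, which hold 13 Gr, 10 Ir and 3 Or genes. Outside pairs the pooled counts were 8 of 57 Or genes (14.0%), 4 of 47 Gr genes (8.51%) and 3 of 50 Ir genes (6%). Or genes were also highest there in replicate 1 (14.0%, Gr 12.8%), but Gr genes were in replicate 3 (31.9%, Or 19.3%).

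**Figure D1:**
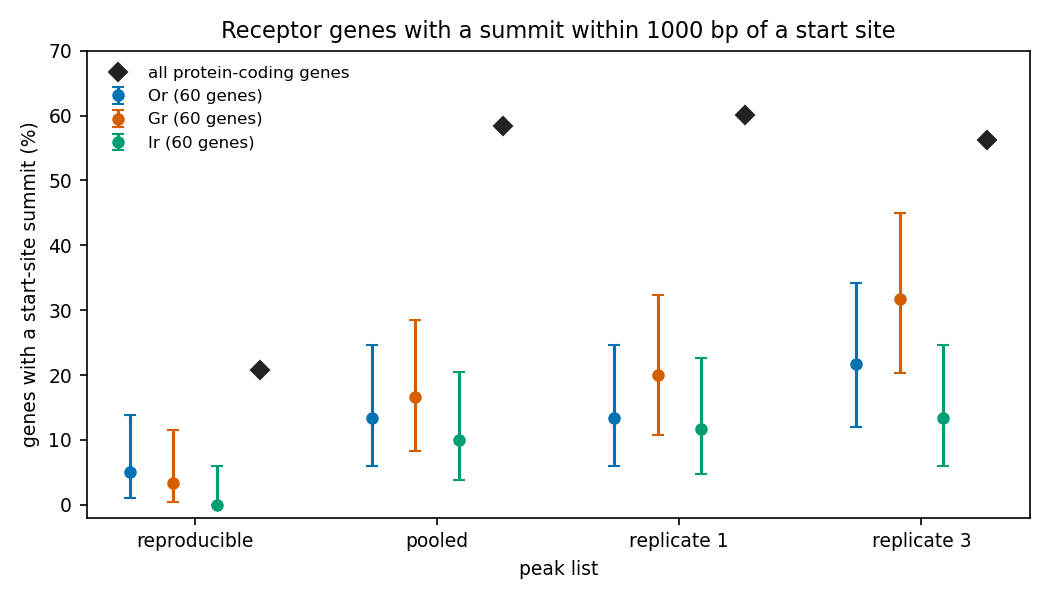
Percentage of genes with a summit within 1000 bp of a start site in each of the 4 peak lists, for the Or, Gr and Ir families (circles, 60 genes each, bars are exact 95% intervals) and for all protein-coding genes (black diamonds). Every family interval lies below the diamond of its list, and the 3 families overlap one another in each list.

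Orco, the co-receptor that every odorant receptor needs, was the only member with a reproducible summit nearest to its own start site. Its pooled signal was 145 at rank 2958, and the summit lay 738 bp upstream with no other start site closer. In replicate 1 the signal was 82.2 at rank 2724, and in replicate 3 it was 56.6 at rank 3889. Both replicates thus held the peak in the upper part of their lists, at 721 bp and 770 bp upstream.

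Or88a, a receptor of trichoid sensilla that responds to fatty acid methyl esters of other flies, had the highest signal of any member. The pooled signal was 295 at rank 1089, and the replicates gave 134 at rank 1330 and 159 at rank 965. The summit lay 646 bp upstream of Or88a but 478 bp upstream of CG12402, a gene on the other strand. A second, weaker pooled summit with a signal of 62.3 at rank 8456 lay 447 bp from the Or88a start site and nearest to it.

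Or9a, an antennal odorant receptor, had a pooled signal of 154 at rank 2721, with its summit 974 bp upstream. That is just inside the window, and only 86 bp from the start site of Neb-cGP on the other strand. Replicate 1 gave 78.5 at rank 2927. In replicate 3 the nearest summit lay 1025 bp away, just outside the window. A second pooled summit 429 bp from the Or9a start had a signal of 29.9 at rank 25525.

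Gr32a, a receptor for bitter compounds and for a male pheromone that restrains courtship, had a pooled signal of 208 at rank 1819. The replicates gave 107 at rank 1852 and 104 at rank 1790, close to each other in rank. The summit lay 795 bp upstream of Gr32a and 158 bp upstream of Idua, which encodes a lysosomal iduronidase.

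Gr64a, one of the sugar receptors, had a pooled signal of 172 at rank 2399. Replicate 1 gave 94.0 at rank 2253 and replicate 3 gave 77.1 at rank 2671. The summit lay 880 bp upstream of Gr64a, inside an untranslated region of CG11594 and 122 bp downstream of that gene's start. In 4 of the 5 reproducible cases, therefore, the nearest start site belonged to a gene that is not a receptor. Over all genes with a reproducible start-site summit, 69.1% had their own start site as the nearest.

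The next members outside the window were Gr89a at 1356 bp, Gr39b at 1366 bp, Or10a and Gr10a at 1933 bp and Or85f at 1943 bp from a reproducible summit. No member lay between 974 and 1356 bp.

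When only the highest pooled summit of each member was taken, the strong and the weak ones differed in position. Of the 12 members with a pooled q of at most 0.05, 8 had another gene's start site as the nearest to their highest summit, and 4 had their own (Orco, Gr10a, Or10a and Gr77a). Of the 12 with a higher q, 10 had their own start site as the nearest. The median pooled signal was 83.4 in the 10 members whose summit was nearest to another gene and 33.0 in the 14 whose summit was nearest to their own start. Over all genes with a pooled summit, 74.5% were nearest to their own start, a share that is not split by q here. The contrast rests on keeping the highest summit alone. Or88a and Gr97a also had weaker summits nearest to their own start, at ranks 8456 and 8645, better than the 9485 of Gr77a.

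All 10 members of the first kind had the neighbour on the opposite strand. None of the 24 summits was nearest to another receptor gene. When every summit in the window was considered, and not the highest alone, 20 of the 24 members had at least 1 pooled summit nearest to their own start, and 4 did not (Gr32a, Gr59a, Gr64a and Ir60e). Of the 24 summits of highest signal, 22 lay upstream of the receptor start (91.7%, and 72.3% over all genes), at a median distance of 512 bp in either direction (237 bp over all genes).

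**Figure D2:**
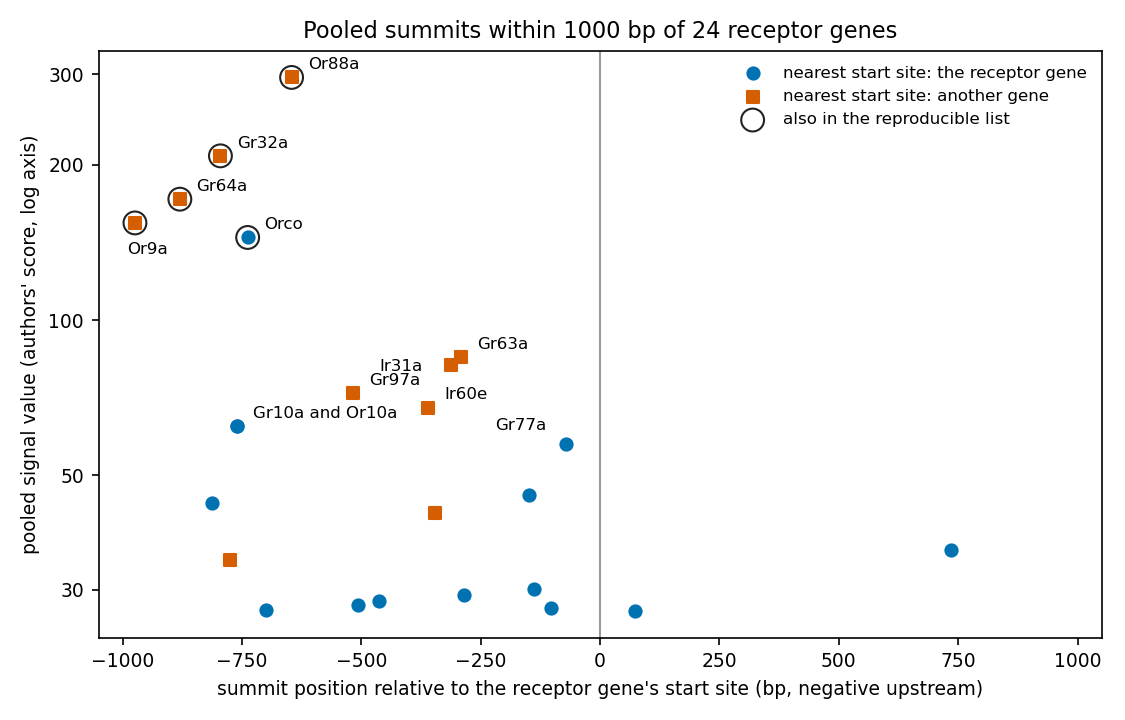
Signal value (log axis) against the position of the highest pooled summit of the 24 receptor genes, with negative values upstream of the receptor's start site. Circles are nearest to the receptor's own start and squares to another gene's, rings mark the 5 peaks that are also in the reproducible list, and the 4 strongest are squares while Orco is the only ringed circle.

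Carbon dioxide is sensed by Gr21a and Gr63a together, and their values differed. Gr63a had a pooled signal of 84.7 at rank 5687, with replicate signals of 35.2 at rank 10589 and 37.4 at rank 6328. The pooled summit lay 292 bp upstream of Gr63a and 5 bp from the start site of Lamtor4, which encodes a lysosomal adaptor subunit. Gr21a had a summit in replicate 3 alone, with a signal of 27.3 at rank 9785 in its own untranslated region. The next pooled summit lay 7258 bp from Gr21a.

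Among the ionotropic receptors, Ir31a, an antennal receptor, had the highest pooled signal, 82.0 at rank 5889. Replicate 1 gave 48.0 at rank 6066, and in replicate 3 the nearest summit lay 2704 bp away. The pooled summit was 49 bp from the shared start of CG17768 and LSm-4, a gene for an RNA-binding Sm-like protein. A weaker pooled summit of 34.2 at rank 21075 lay 98 bp from the Ir31a start and nearest to it. Replicate 1 held one of 39.5 at 67 bp. Ir60e followed with 67.6 at rank 7587, and its replicate signals were 33.1 and 37.3. That summit lay in an untranslated region of CG13585, 12 bp from its start.

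The ionotropic co-receptors had weak summits at most. Ir76b had a pooled signal of 27.7 at rank 28312 with q = 0.599, a replicate 3 signal of 18.0 at rank 20084 and no replicate 1 summit. Ir25a had a summit in replicate 1 alone, at rank 24918 in its coding sequence, and Ir8a in replicate 3 alone, at rank 16428 and 1 bp from its start. Their values contrast with Orco, whose ranks in the pooled, replicate 1 and replicate 3 lists lay between 2724 and 3889.

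Sensors of temperature and humidity were similar. Ir21a, which senses cooling, had a replicate 1 summit of 35.8 at rank 10257 with q = 0.0330, 37 bp upstream, and none in the pooled list. Ir40a, which senses dry air, had a replicate 3 summit at rank 15907. Ir68a, which senses moist air, had a pooled signal of 35.9 at rank 19586 inside its coding sequence. Their partner Ir93a had no start-site summit in any list.

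Gr10a and Or10a are annotated at the same gene interval, and their shared pooled summit had a signal of 62.3 at rank 8461, 761 bp upstream. The replicate signals were 35.9 at rank 10188 and 28.5 at rank 9144. Gr77a had a pooled signal of 57.5 at rank 9485, 71 bp upstream of its start and inside an intron of CG13252. Its replicate signals were 38.7 at rank 8867 and 21.0 at rank 15269. The highest summit of Gr97a, with a pooled signal of 72.2 at rank 6958, was nearest to CG5521 in the pooled list and in replicate 3. In replicate 1 the highest summit, of 61.0, lay 7 bp downstream of the Gr97a start. The pooled list also held a summit of 61.4 at rank 8645, 19 bp from the Gr97a start and nearest to it.

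Other receptors with known ligands had low or no values. Gr5a, a receptor for trehalose, had a pooled signal of 29.3 at rank 26257 and a replicate 1 summit at rank 16618. Gr43a, which detects fructose, had a replicate 1 summit at rank 20283 alone. The bitter receptor Gr66a and the multi-purpose receptor Gr28b had replicate 3 summits alone, at ranks 29824 and 23369. Or67d, the receptor of the male pheromone cis-vaccenyl acetate, had a replicate 3 summit alone at rank 28796. Or22a, Or42a and Or42b, which respond to fruit esters, Or47b, which responds to methyl laurate, Or56a, which is tuned to the mould odour geosmin, and Ir84a, which responds to food-derived phenylacetaldehyde, had no start-site summit in any of the 4 lists. A missing summit means only that none was called from whole-embryo chromatin at this unknown depth, not that fd3F was absent.

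The remaining pooled members had signals between 27.3 and 45.9. The upper ones were Or30a at 45.9, Or45b at 44.2 and Ir76a at 42.2, and the lowest were Or85f at 27.5 and Gr89a at 27.3. The best rank among them was 13434, and the median signal of the pooled list was 42.6.

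Many chemosensory genes arose by duplication and lie side by side. With another member within 10000 bp, 84 receptor genes were clustered, in 29 clusters of up to 6 genes, and 96 were single. In the pooled list 7 clustered genes had a start-site summit (8.33%, interval 3.42 to 16.4%) and 17 single ones did (17.7%, interval 10.7 to 26.8%). Replicate 1 gave 7 and 20, the reproducible list 2 and 3. In replicate 3 the order was not seen, with 19 clustered genes (22.6%) and 21 single genes (21.9%). The pooled and replicate 1 difference therefore did not hold in replicate 3, and the pooled intervals overlap. At a q of at most 0.05 the pooled shares were close, with 5 clustered genes (5.95%) and 7 single genes (7.29%).

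Of the 29 clusters, 6 had a pooled summit at 1 or more members, and in none did every member have one. The clusters of 4 or more genes held 25 genes, and 2 of these, Gr64a and Gr93a, had a pooled summit. In the cluster of the sugar receptors Gr64a to Gr64f, which lie on 1 strand, the summit upstream of Gr64a was the only one in any list, and the other 5 genes had none. The 6 clustered Ir7 genes and the 4 Ir52 genes had none in any list. In the Gr22 cluster of 5 genes Gr22a had a replicate 3 summit at rank 8670, and in the Gr93 cluster Gr93d had one in replicate 3 at rank 22493. Gr93a, which takes part in the detection of caffeine, had a pooled signal of 30.1.

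Genes whose start site lies head to head with that of another protein-coding gene, within 1000 bp on opposite strands, carried a summit more often in these lists. Of the receptor genes 26 lay in such pairs (14.4%), where 36.2% of all genes did. In pairs, 9 of 26 receptor genes had a pooled summit (34.6%, interval 17.2 to 55.7%) beside 77.7% of all genes in pairs. Outside pairs, 15 of 154 did (9.74%, interval 5.55 to 15.6%) beside 47.5% of all such genes. The receptor genes in pairs thus had a higher share than those outside, and both shares lay below that of all genes in the same arrangement. The order depended on which summits were counted. When only summits nearest to the own start site counted, the pooled list gave 5 of 26 receptor genes in pairs (19.2%, beside 55.1% of all genes in pairs) and 15 of 154 outside (9.74%, beside 45.9%). In replicate 3 the order was the reverse by that count, with 1 of 26 in pairs (3.85%, beside 47.4%) and 31 of 154 outside (20.1%, beside 46%).

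Replicate 1 gave 9 receptor genes in pairs beside 81% of all genes in pairs, and 18 outside beside 48.2%. Replicate 3 gave 8 in pairs beside 70.8%, and 32 outside (20.8%) beside 47.9%. The reproducible list gave 2 of 26 (7.69%, interval 0.946 to 25.1%) beside 36.1%, and 3 of 154 (1.95%, interval 0.404 to 5.59%) beside 12%. The pairs Gr58a with Gr58b, Gr59e with Gr59f and Ir7f with Ir7g consist of receptor genes alone, and none of these 6 genes had a summit in any list. The 9 highest pooled summits were all in the 20 pairs with a partner that is not a receptor, and 8 of the 9 lay nearer to the partner. Gr5a, paired with Tre1, was the exception. The matching share over all genes in pairs is not given here. With every summit in the window counted, 5 of these 9 receptor genes had a pooled summit nearest to their own start.

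Of the 20 partners that are not receptor genes, 3 had a reproducible summit (15%, interval 3.21 to 37.9%, beside 36.1% of all genes in pairs). In the pooled list and in replicate 1, 11 did (55%, interval 31.5 to 76.9%, beside 77.7% and 81%). In replicate 3, 14 did (70%, interval 45.7 to 88.1%, beside 70.8%), and that interval includes the share of all paired genes. The third reproducible partner was p53, the tumour suppressor gene paired with Gr94a, where the receptor had no summit of its own. The paired start sites lie 459 bp apart. The nearest reproducible summit lay 2448 bp from the Gr94a start, and the nearest pooled one 1612 bp. Both were thus outside the window of the paired p53 start, and p53 was counted through a different start. The partner counts are therefore not counts of summits at the paired starts. Or88a and Or9a were not counted as paired, since their start sites lie 1124 and 1060 bp from those of CG12402 and Neb-cGP.

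**Figure D3:**
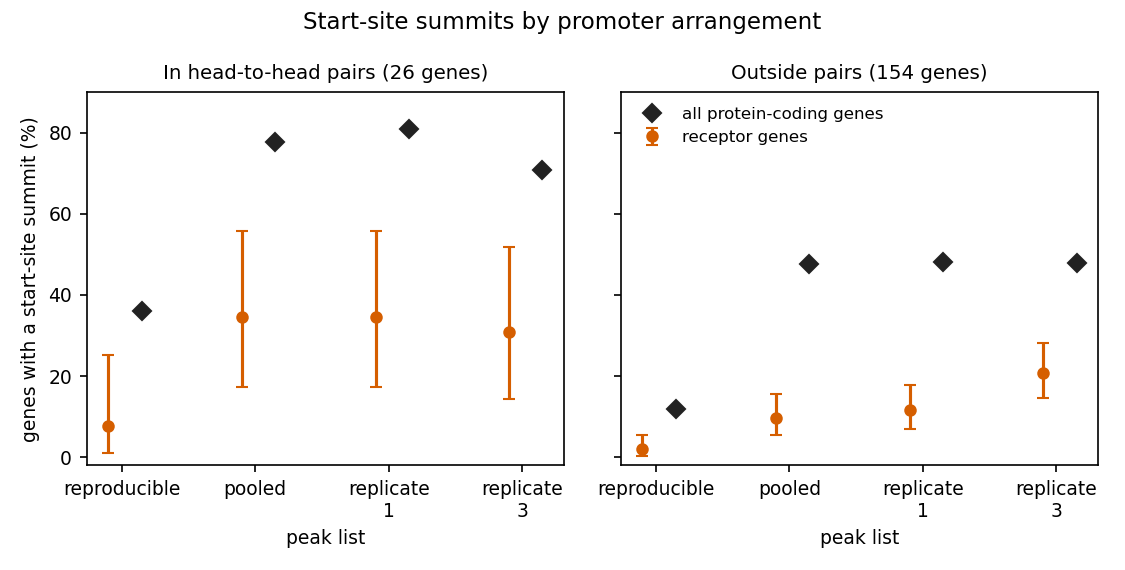
Percentage of genes with a start-site summit in each peak list, for receptor genes (circles with exact 95% intervals) and all protein-coding genes (diamonds), in head-to-head pairs at left and outside pairs at right. In both panels every receptor interval lies below the diamond of its list.

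Receptor genes also differ from other genes in how their start sites are annotated, and the shares were read beside that. One start site was annotated for 167 of them (92.8%, and 73.5% of all genes), and 130 had no annotated 5′ untranslated region (72.2%, and 3.52% of all genes), so that their annotated start is the start of the coding sequence. Of the 142 receptor genes outside pairs with 1 start site, 13 had a pooled summit (9.15%, interval 4.97 to 15.1%) beside 40.4% of all such genes, and 2 had a reproducible one (1.41%, interval 0.171 to 4.995%) beside 7.75%.

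Outside pairs and without an annotated 5′ untranslated region, 8 of 114 receptor genes had a pooled summit (7.02%, interval 3.08 to 13.4%), and 20.3% of the 305 other genes of that kind did. For the reproducible list the values were 2 of 114 (1.75%, interval 0.213 to 6.19%) and 2 of 305 (0.656%). Against these genes the reproducible share of the receptor genes was not lower, but each side holds 2 genes. Outside pairs only 1 receptor gene, Orco, had a reproducible summit nearest to its own start (0.649%, beside 11.6% of all genes outside pairs). That count was not made for the 305 genes. Receptor genes outside pairs with an annotated 5′ untranslated region had a pooled summit in 7 of 40 cases (17.5%, interval 7.34 to 32.8%). This split was added after the values were seen.

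The nearest reproducible summit was far from most receptor genes. Its distance from the nearest start site of the gene had a median of 20397.5 bp over the 180 members and 7792 bp over all genes. The median was 33897 bp for Or genes, 16287.5 bp for Ir genes and 13425 bp for Gr genes. Outside pairs the median was 24646 bp for receptor genes and 11129 bp for all genes. Among Or genes 52 of 60 (86.7%) had no reproducible summit within 10000 bp, against 34 of 60 Gr genes (56.7%), 39 of 60 Ir genes (65.0%) and 44.2% of all genes. For the pooled list the medians were 5768 bp for the members and 491 bp for all genes. The nearest start site of another gene was also farther from receptor genes, with a median of 2145.5 bp and 1375 bp over all genes, and the part of this spacing in the distances was not tested.

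**Figure D4:**
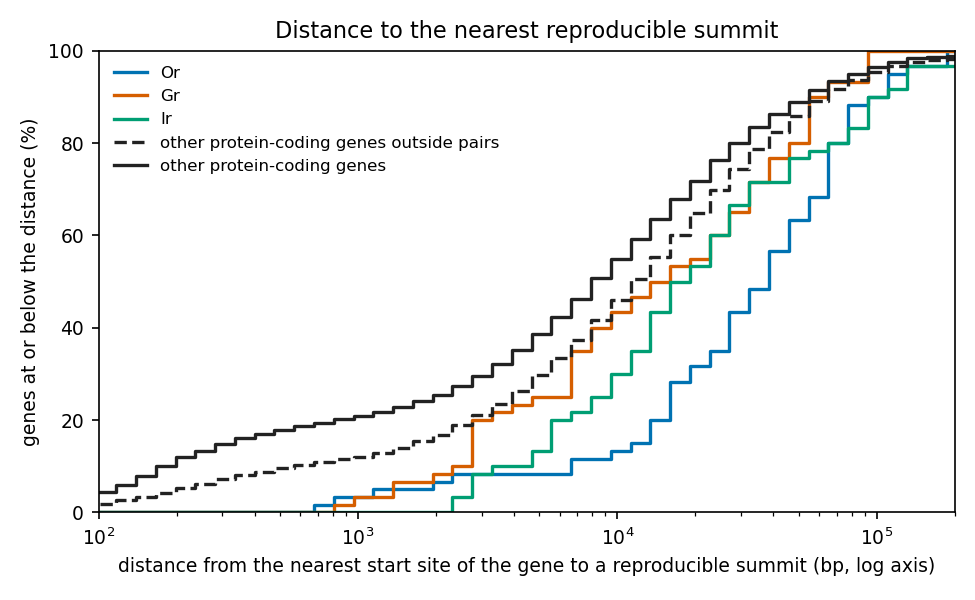
Percentage of genes whose nearest reproducible summit lies at or below a distance (log axis, bp), for Or, Gr and Ir genes and for other protein-coding genes (black, dashed for those outside head-to-head pairs). The Or curve lies lowest from about 3288 bp to about 54612 bp, with its median at 33897 bp, and all 3 families start to the right of the black curves.

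The replicates named largely different receptor genes. A start-site summit was present in both replicate lists for 12 receptor genes, which is 44.4% of the 27 in replicate 1 and 30% of the 40 in replicate 3. Over all genes the shared part was 76.1% and 81.3%. A further 15 members were in replicate 1 alone, 28 in replicate 3 alone, and 125 in neither. The 28 had ranks between 8299 and 29824 with a median of 19007.5, and 1 of them, Ir60b, had q of at most 0.05. The 15 had a median rank of 14065, and 4 of them had q of at most 0.05. The 12 shared members had better median ranks, 9527.5 in replicate 1 and 7750.5 in replicate 3. Sharing was counted by gene, so the 2 summits need not be the same peak. At Ir85a they lay 39 bp downstream of the start in replicate 1 and 887 bp upstream in replicate 3. Among the 3917 best peaks of each replicate, 4 of the 5 members of replicate 1 were also in replicate 3, and the exception was Or9a.

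Summits seen in 1 replicate alone were often in coding sequence. Of the 28 members in replicate 3 alone, 12 had their summit there (42.9%), and of the 15 in replicate 1 alone, 5 did (33.3%). All summits of those lists lay in coding sequence in 7.83% and 10.9% of cases, but these include summits far from genes, and most receptor genes are annotated to start at their coding sequence. On arm 2L lay 12 of the 28 and 4 of the 15, where 19.9% and 19.1% of all summits of the respective list lay. On that arm replicate 3 gave 13 of 31 receptor genes (41.9%, interval 24.5 to 60.9%), replicate 1 gave 5 and the pooled list 3. Over all genes of arm 2L the shares were 55.3% in replicate 3 and 57.6% in replicate 1. Examples were Gr33a, a receptor for bitter compounds, at rank 20658, and Or24a, Or33c, Or35a and Gr36c, each with a summit in its own coding sequence. The higher count on arm 2L was not seen in replicate 1 or in the pooled list.

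**Figure D5:**
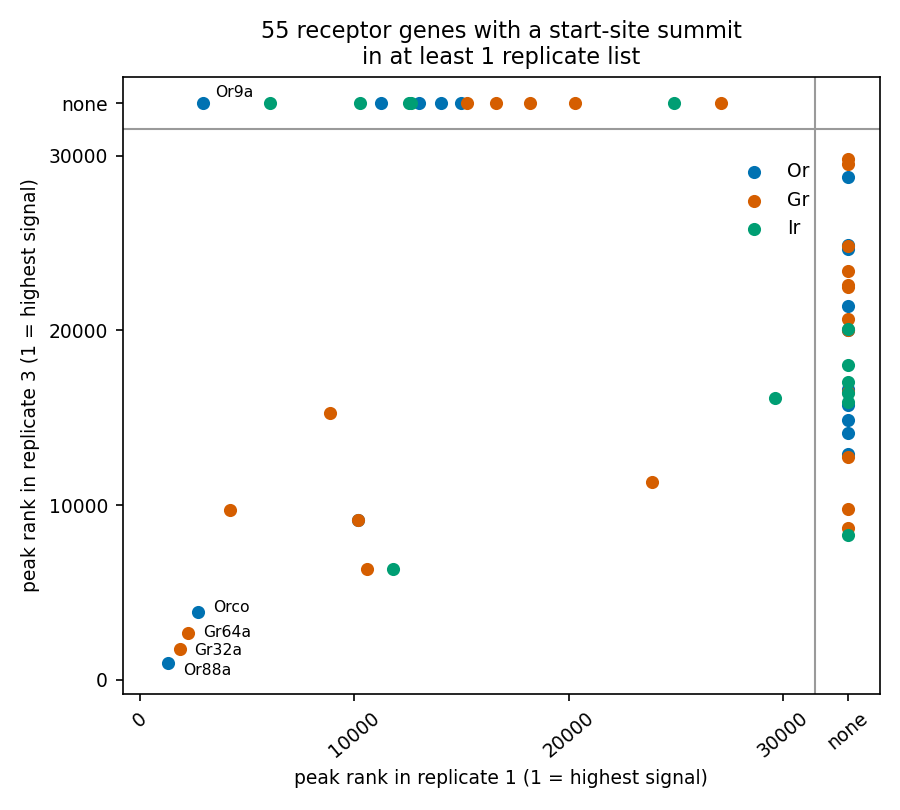
Rank of the highest start-site summit in replicate 1 and replicate 3 for the 55 receptor genes with one in at least 1 of the 2 lists; points on the outer strips had no summit in the other replicate. Or88a, Gr32a, Gr64a and Orco sit together at ranks of 3889 or better in both, while 28 genes stand on the right strip.

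The promoter sequences were searched on both strands for 5 words. GTAAACA and ATAAACA are forms of the site that forkhead proteins bind, TATCGATA and GGTCACAC are elements of broadly active fly promoters, and GAGAG is the site of the GAGA factor. In the window from 250 bases before to 50 after the start site, GTAAACA was present at 11 receptor genes (6.11%, and 9.24% of all genes) and ATAAACA at 15 (8.33%, and 13.2%). TATCGATA was present at 1, Gr68a (0.556%, and 9.37%), GGTCACAC at none (7.71% of all genes) and GAGAG at 37 (20.6%, and 29.8%). The median G and C content was 39.5% and 37.9%.

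Among the 11 receptor genes with GTAAACA, 2 had a pooled summit, Gr64a and Gr77a. The 305 other genes outside pairs without an annotated 5′ untranslated region had GTAAACA in 5.90%, ATAAACA in 11.5%, TATCGATA in 0.984%, GGTCACAC in 0.656% and GAGAG in 22.3%. For each of the 5 words the receptor share was nearer to that of these genes than to that of all genes. The receptor share covers all 180 genes, those in pairs and those with an annotated 5′ untranslated region included. The 114 receptor genes of the same kind as the 305 are not given on their own, so the 2 sides are not matched.

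Within 100 bp of the 23 distinct pooled summits of the members, GTAAACA was present at 1, ATAAACA at 3, TATCGATA at none, GGTCACAC at 1 and GAGAG at 2. The shares at all 30000 pooled summits were 5.93%, 9.72%, 1.51%, 1.05% and 20.8%. The GTAAACA match was near Gr59a, and the GGTCACAC match was near Gr63a, beside Lamtor4. No word was found near Orco. A match is a description of the letters and not a measured site.

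Other gene lists were counted in the same way, beside 20.8% of all genes in the reproducible and 58.4% in the pooled list. Besides chemosensory genes they include ionotropic glutamate receptor and rhodopsin genes, which are not chemosensory lists. Of 51 odorant-binding protein genes, which encode carriers in the sensillar fluid, 2 had a reproducible and 8 a pooled start-site summit (15.7%). Obp99b had a signal of 181 at rank 2227 and Obp83g had 120 at rank 3708. Of 29 pickpocket sodium channel genes, some of which act in taste and pheromone detection, 3 had a reproducible and 7 a pooled summit (24.1%). These were ppk11 and ppk16, which share a summit, and ppk29, whose partner is the translation factor gene eEF5.

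Of 20 CheA and CheB genes, 1 had a reproducible and 7 a pooled summit (35%, interval 15.4 to 59.2%), and CheA56a had a signal of 284 at rank 1160. Snmp1 and Snmp2, membrane proteins of pheromone-sensing cells, both had a pooled and neither a reproducible summit. Of the 13 ionotropic glutamate receptor genes 6 had a pooled summit (46.2%, interval 19.2 to 74.9%) and none a reproducible one, and of the 7 rhodopsin genes 3 (42.9%, interval 9.90 to 81.6%) and none did. The pooled intervals of the CheA and CheB, Snmp (2 genes, 15.8 to 100%), glutamate receptor and rhodopsin genes include the share over all genes. Of 11 transcription regulators of olfactory neurons, Xbp1 with 461 at rank 488 and zf30C with 234 at rank 1535 had both, and the other 9 had neither. Xbp1 also acts in the stress response of many cell types. These lists are small, and all pooled intervals overlap that of the receptor genes except that of the glutamate receptors, whose lower end of 19.22% is just above the upper end of 19.19% for the receptor genes.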

How the data were processed

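The binding of GFP-tagged fd3F was analysed from 4 deposited peak lists in narrowPeak format on dm6 (2 replicates, their pool, and reproducible peaks selected by irreproducible discovery rate, per the deposited file descriptions). No source used here names the aligner, the peak caller, their versions or the threshold. The score of each peak is the authors' signal value over the control, and the −log10 q-value was used as deposited. Peaks were ranked within each list by signal.

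Genes came from Ensembl 115 (FlyBase 6.54), and all 180 members had the same coordinates in RefSeq Release 6. A summit was the peak start plus its offset. Head-to-head partners were opposite-strand protein-coding starts 0 to 1000 bp upstream, and clustered genes had another member within 10000 bp. The members and gene lists were chosen with earlier results of these data known, and no significance test was made. Genes named are those with a reproducible summit, the 5 highest pooled signals per family, co-receptors and receptors of known role, large clusters, and partners with a pooled summit; others were named after their values were seen. Replicates are separate biosamples per the labels. Alternatives changed the window, the start site used, the peak interval, the q-value, the cluster and pair distances, and the replicate. The counting code was tested on simulated data. The work used matplotlib 3.10.9, scipy 1.17.1, pandas 2.3.3 and numpy 2.4.6 under Python 3.11.15.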

Additional observations from a re-analysis of the deposited data

How the results depend on the processing

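Of 75 alternative values for 9 results, 61 stayed within the counting interval or within 1.5 times the count, and 14 moved. With a window of 500 bp the reproducible count was 0 and with 2000 bp it was 10, while the shares of all genes were 17.8% and 25.4%. The upper part of the reproducible list, 1958 peaks, gave 2 (Or88a and Gr32a). With 2000 bp the pooled count was 37 (67.3% of all genes), the share of single genes 28.1% and of genes outside pairs 16.9%. With q of at most 0.05 the pooled count was 12, and the shares were 7.29% of single genes, 3.90% outside pairs and 3.33% of Ir genes. With 1 replicate list in place of the pooled one, the count ranged from 27 to 40, the Gr share from 20.0 to 31.7%, the clustered share from 8.33 to 22.6% and the share outside pairs from 11.7 to 20.8%, with replicate 3 alone giving the upper values. No paired analysis was possible because the series has 1 group and no comparison between groups. The depth of the libraries is unknown, which limits what a missing peak shows.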
